A study of Homo sapiens with 4 samples.

Results

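The cyclins, kinases and inhibitors that move a cell from G1 into S phase, together with the retinoblastoma gene RB1, were examined in engineered prostate cancer tissues. The genes were taken by symbol from the deposited table: CCND1, CCND3, CCNE1, CCNE2, CDK2, CDK4, CDK6, RB1 and CDKN1B, which are 9 of the 17791 genes measured. CCND2, a further D-type cyclin on the list of 10 genes, had no value among these 17791 genes and was not analysed.

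RNA was sequenced from 4 libraries, 1 per group, after 15 days of culture: LNCaP cells with BJ-5ta fibroblasts (LNCaP coculture), LNCaP cells alone (LNCaP monoculture), PC-3 cells with BJ-5ta fibroblasts (PC-3 coculture) and PC-3 cells alone (PC-3 monoculture). LNCaP is an established prostate cancer line labelled androgen-dependent (ADPC), PC-3 an established prostate cancer line labelled castration-resistant (CRPC-ne), and BJ-5ta a telomerase-expressing fibroblast line from normal tissue. The labels describe cells embedded in a poly(ethylene glycol)-fibrinogen gel (its stiffness in each group is not given), with 5 cancer cells to 1 fibroblast in coculture, and no drug treatment in any group. Each kind of cancer was represented by 1 line, the growth protocol names the medium of PC-3 tissues only, and RNA came from more than 2 tissues per group without a statement of how it was combined. With no replicate library, every difference below is between 2 libraries rather than 2 conditions, no test was run, and every 95% interval covers counting error only.

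The G1 to S switch works as a chain. D-type cyclins bind and activate CDK4 and CDK6 in response to growth signals, and these kinases begin to phosphorylate RB, the protein that holds E2F transcription factors inactive. Released E2F turns on genes of DNA replication and the E-type cyclins, which activate CDK2 and complete the phosphorylation of RB, while p27, the product of CDKN1B, inhibits cyclin E-CDK2. In prostate cancer cells this chain is one through which androgen signalling reaches the cell cycle.

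CDK6 and CCNE1 had the widest ranges of the 9 genes over the 4 libraries, 9.60-fold and 5.34-fold. CDK6 separated the lines, and CCNE1 was highest in cocultured LNCaP and lowest in cocultured PC-3 tissues. Their proximal promoters are shown for this reason, as RefSeq gives them on GRCh38.p14, each ending before the first start that RefSeq or GENCODE annotates. Capitals mark GC boxes (GGGCGG on either strand), the letters bound by SP1-family factors. The CCNE1 sequence is chr19:29811741-29811897 on the plus strand and has 5 GC boxes, and the CDK6 sequence is chr7:92836595-92836823 on the minus strand and has 3.
CCNE1: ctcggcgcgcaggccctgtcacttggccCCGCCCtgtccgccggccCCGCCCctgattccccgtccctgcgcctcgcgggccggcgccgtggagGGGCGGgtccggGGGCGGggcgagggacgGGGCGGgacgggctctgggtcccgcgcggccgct
CDK6: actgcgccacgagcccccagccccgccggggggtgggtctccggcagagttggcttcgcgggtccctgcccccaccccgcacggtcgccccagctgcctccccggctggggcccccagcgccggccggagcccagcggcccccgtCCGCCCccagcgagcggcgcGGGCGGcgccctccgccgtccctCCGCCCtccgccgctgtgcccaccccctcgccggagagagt
RefSeq promoter windows of 300 bases were at hand for 6 of the 9 genes (CCND3, CCNE1, CDK4, CDK6, RB1 and CDKN1B; that of RB1 lies inside the gene, at an internal start). These genes had 9 windows, since some have several starts. A GC box was present in 6 of the 9 windows, belonging to 5 of the 6 genes, and in 45.0% of all 35116 promoter windows. The E2F motif, searched on both strands as TTTCCCGC, TTTCGCGC, TTTGCCGC or TTTGGCGC, was in 0 of the 9 windows and in 3.31% of all windows, and the CCAAT box (CCAAT on either strand) was in 3 of the 9, those of CCND3 and CDKN1B, and in 34.6% of all. These are matches of letters only. At a share of 3.31% of all windows, 0 of 9 does not show that these genes lack E2F sites.

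The libraries held 15520243 (LNCaP coculture), 15860981 (LNCaP monoculture), 15687894 (PC-3 coculture) and 15865690 (PC-3 monoculture) estimated counts. At these depths a count of 0 allows a level of up to 0.188 to 0.193 counts per 1000000 (CPM). KLK3 and KLK2, androgen-regulated kallikreins of LNCaP cells, had 0 counts in both PC-3 libraries. The 10 fibroblast markers summed to 593 CPM in cocultured LNCaP tissues, 0.950 CPM in monocultured LNCaP tissues, 316 CPM in cocultured PC-3 tissues and 13.5 CPM in monocultured PC-3 tissues. In monocultured PC-3 tissues PDGFRA alone gave 11.7 CPM of that sum, and it was 1.80-fold higher in cocultured PC-3 tissues (1.50 to 2.16). The collagen gene COL1A2 had 3577 counts in cocultured LNCaP tissues and 0 in monocultured LNCaP tissues, and 2026 in cocultured PC-3 tissues and 1 in monocultured PC-3 tissues. Of these markers, 6 were at 0 in monocultured LNCaP tissues and 3 in monocultured PC-3 tissues. All 10 were at least 1.5-fold higher in either coculture, so they moved with each coculture difference given below, and their part in those differences was not tested. The macrophage marker CD68 had 15.8 CPM in cocultured LNCaP tissues, 4.24 CPM in monocultured LNCaP tissues, 56.7 CPM in cocultured PC-3 tissues and 42.5 CPM in monocultured PC-3 tissues. Of the endothelial markers, VWF had 36.6 CPM in cocultured LNCaP tissues and 10.8 CPM in monocultured LNCaP tissues (3.38-fold, 2.84 to 4.03), and PECAM1 had 69.6 CPM in cocultured PC-3 tissues and 50.5 CPM in monocultured PC-3 tissues (1.38-fold, 1.26 to 1.51). VWF had 3 counts in cocultured and 0 in monocultured PC-3 tissues, and PECAM1 had 1 in cocultured and 0 in monocultured LNCaP tissues. Only 2 of 3 listed endothelial markers and 1 of 3 immune markers had values. CD68 in either line, VWF in LNCaP tissues and PECAM1 in PC-3 tissues were present without fibroblasts and higher in coculture. Their part in the differences was not tested. In these bulk libraries fewer cells of a type and less RNA per cell cannot be told apart.

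All 9 genes were detected in all 4 libraries, and CCND1 was the most abundant of them. Scaled by exon length, as CPM per 1000 bases of merged GENCODE v29 exons, CCND1 stood at 165 in cocultured LNCaP tissues, 167 in monocultured LNCaP tissues, 142 in cocultured PC-3 tissues and 136 in monocultured PC-3 tissues. In monocultured LNCaP tissues the length-scaled order after CCND1 was CDKN1B (69.1), CDK4 (61.8), CDK2 (27.6), CCND3 (13.4), RB1 (12.5), CCNE1 (4.57), CCNE2 (3.27) and CDK6 (0.621). In monocultured PC-3 tissues it was CDK4 (41.6), CDKN1B (33.9), CDK2 (21.5), CCND3 (15.4), RB1 (8.45), CDK6 (5.66), CCNE2 (3.30) and CCNE1 (2.65). Neighbours whose counting intervals overlapped were CCND3 and RB1 in monocultured LNCaP tissues, CCNE2 and CCNE1 in monocultured PC-3 tissues, and, in cocultured LNCaP tissues, CDK4 with CDKN1B and RB1 with CCND3. The place of CCND3 depends on the length used: by its principal transcript of 2085 bases, instead of 3942 merged bases, it stood above CDK2 in monocultured PC-3 tissues (29.2 against 22.9).

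**Figure D1:**
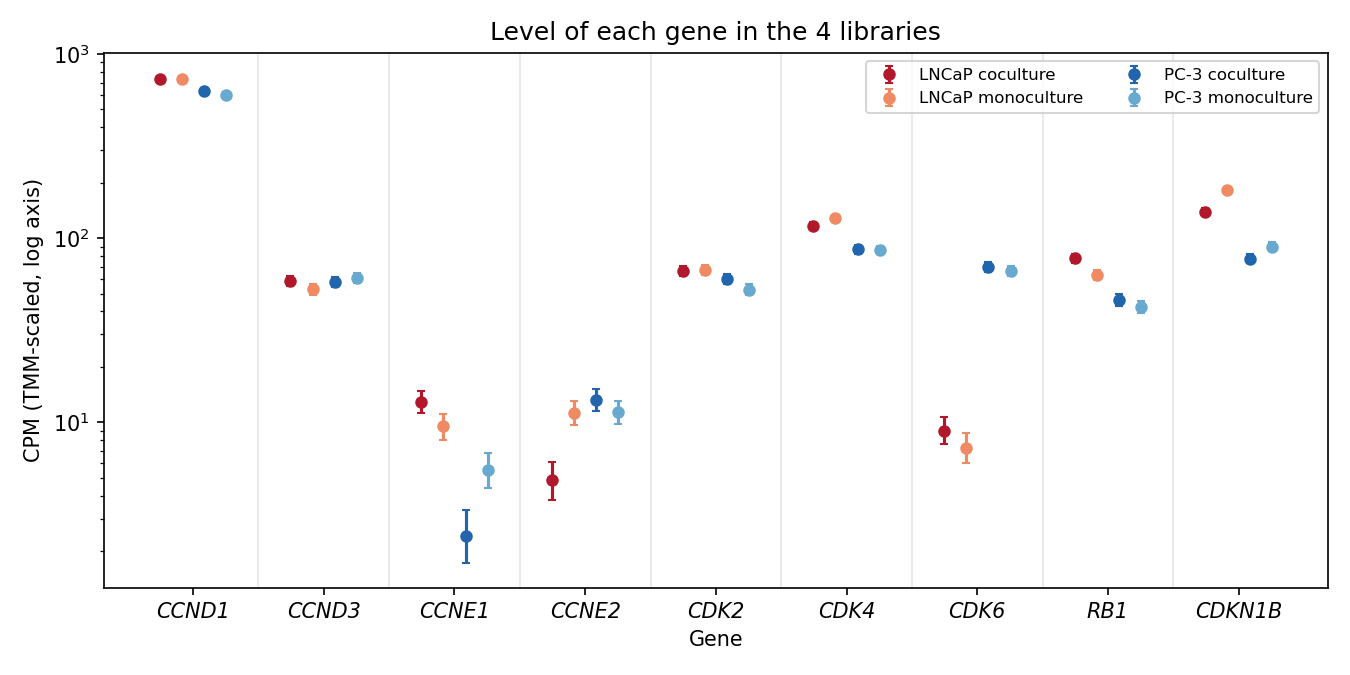
Level of the 9 genes in the 4 libraries, as TMM-scaled CPM on a log axis, with exact 95% counting intervals. CDK6 is 9.12 times lower in LNCaP than in PC-3 monocultures and 7.75 times lower in LNCaP than in PC-3 cocultures, and the CCNE1 and CCNE2 points spread over the 4 libraries in opposite directions.

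Among the D-type cyclins, CCND1 (chromosome 11, 69641156 to 69654474) was steady. It had 728 CPM in cocultured LNCaP tissues, 734 CPM in monocultured LNCaP tissues, 626 CPM in cocultured PC-3 tissues and 598 CPM in monocultured PC-3 tissues, and it ranked between 117th and 156th by count of all genes in each library. Both LNCaP libraries lay above both PC-3 libraries, by 1.23-fold between the monocultures (1.19 to 1.26) and 1.16-fold between the cocultures (1.13 to 1.19). Coculture over monoculture was 0.992 in LNCaP tissues (0.967 to 1.02; its log2 of -0.012 became 0.027 with median-of-ratios scaling) and 1.05 in PC-3 tissues (1.02 to 1.08). CCND3 (chromosome 6, 41934933 to 42050035) had 58.6 CPM in cocultured LNCaP tissues, 52.9 CPM in monocultured LNCaP tissues, 57.7 CPM in cocultured PC-3 tissues and 60.8 CPM in monocultured PC-3 tissues. Its highest library was only 1.15 times its lowest, the smallest range of the 9 genes. CCND1 made up 92.6% of the counts of the pair in cocultured LNCaP tissues, 93.3% in monocultured LNCaP tissues, 91.6% in cocultured PC-3 tissues and 90.8% in monocultured PC-3 tissues.

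Of the kinases that D-type cyclins activate, CDK4 was present in either line and CDK6 mainly in PC-3. CDK6 (chromosome 7, 92604921 to 92836573, minus strand, with the promoter printed above) had 140 counts or 9.03 CPM in cocultured LNCaP tissues and 115 counts or 7.28 CPM in monocultured LNCaP tissues, against 1096 counts or 69.9 CPM in cocultured PC-3 tissues and 1060 counts or 66.4 CPM in monocultured PC-3 tissues. It was 9.12-fold lower in LNCaP than in PC-3 tissues between the monocultures (7.52 to 11.2) and 7.75-fold lower between the cocultures (6.49 to 9.31). Both LNCaP libraries were far below both PC-3 libraries, whereas coculture over monoculture was 1.24 in LNCaP (0.961 to 1.60) and 1.05 in PC-3 tissues (0.967 to 1.15), each interval holding 1.

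CDK4 (chromosome 12, 57747727 to 57752310, minus strand) had 117 CPM in cocultured LNCaP tissues and 128 CPM in monocultured LNCaP tissues, against 87.1 CPM in cocultured PC-3 tissues and 86.4 CPM in monocultured PC-3 tissues. It was higher in LNCaP, by 1.48-fold between monocultures (1.39 to 1.59) and 1.34-fold between cocultures (1.25 to 1.44). As a share of the counts of both kinases, CDK4 took 92.8% in cocultured LNCaP tissues, 94.6% in monocultured LNCaP tissues, 55.5% in cocultured PC-3 tissues and 56.5% in monocultured PC-3 tissues. Per exon length, CDK4 exceeded CDK6 by 73.1-fold in cocultured LNCaP tissues, 99.5-fold in monocultured LNCaP tissues, 7.04-fold in cocultured PC-3 tissues and 7.35-fold in monocultured PC-3 tissues. CDK4 was thus the more abundant kinase by length in all 4 libraries, by a wider margin in LNCaP.

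**Figure D2:**
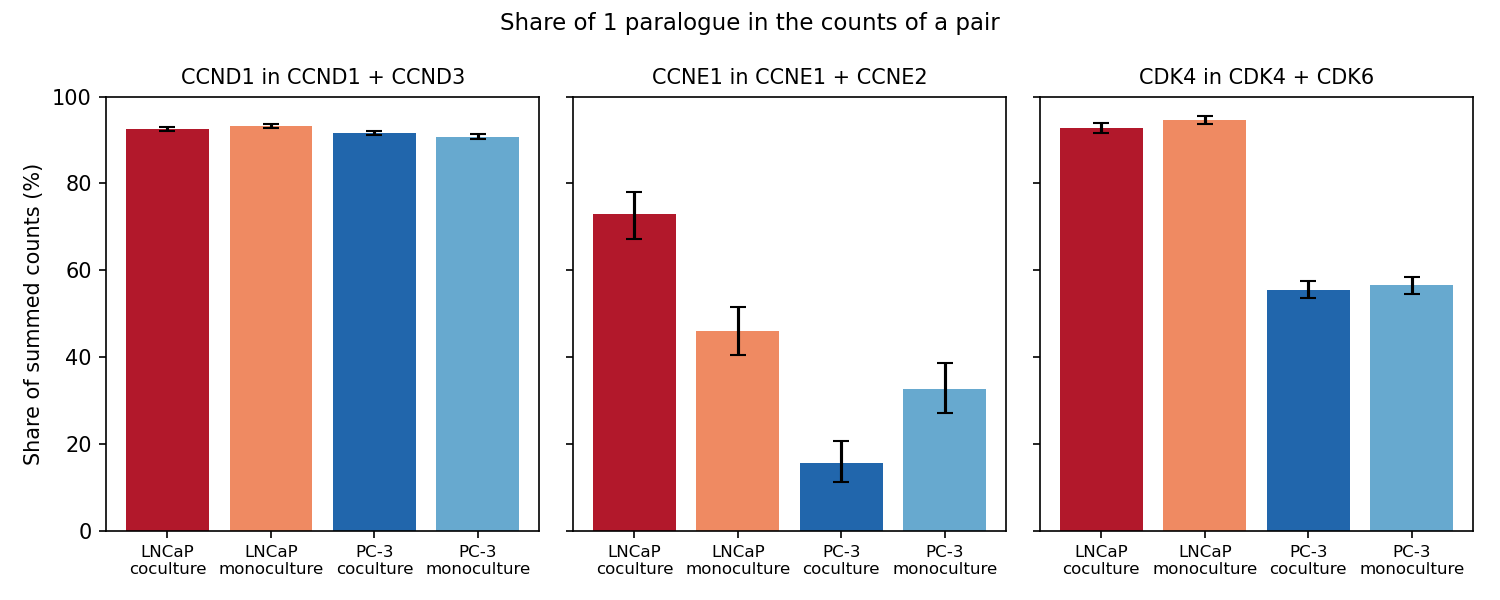
Share of CCND1, CCNE1 and CDK4 in the summed counts of each pair of paralogues, in percent, with exact 95% binomial intervals. The CCND1 share is near level in all libraries, the CDK4 share separates LNCaP from PC-3, and the CCNE1 share runs from 72.8% in cocultured LNCaP tissues to 15.5% in cocultured PC-3 tissues.

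The E-type cyclins, the E2F-induced partners of CDK2, gave the only members that differed by at least 2-fold between coculture and monoculture, and a different one did so in each line. CCNE1 (chromosome 19, 29811991 to 29824312; 12 exons) had 201 counts or 13.0 CPM in cocultured LNCaP tissues and 150 counts or 9.50 CPM in monocultured LNCaP tissues, and 38 counts or 2.42 CPM in cocultured PC-3 tissues and 88 counts or 5.51 CPM in monocultured PC-3 tissues. The coculture was higher than the monoculture in LNCaP tissues (1.36-fold, 1.10 to 1.70) and lower in PC-3 tissues (2.27-fold lower, 1.54 to 3.42). CCNE1 thus had its highest level in one coculture and its lowest in the other, and was 5.34-fold higher in LNCaP than in PC-3 tissues between the cocultures (3.76 to 7.77), against 1.72-fold between the monocultures (1.32 to 2.27). The difference of its log2 folds, LNCaP minus PC-3, was 1.59 (0.97 to 2.20).

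CCNE2 (chromosome 8, 94880224 to 94896693, minus strand) ran the other way. It had 75 counts or 4.84 CPM in cocultured LNCaP tissues and 177 counts or 11.2 CPM in monocultured LNCaP tissues, and 207 counts or 13.2 CPM in cocultured PC-3 tissues and 181 counts or 11.3 CPM in monocultured PC-3 tissues. It was lower in cocultured than in monocultured LNCaP tissues (2.32-fold lower, 1.76 to 3.08) and had a fold of 1.17 in PC-3 tissues (0.950 to 1.43), with a difference of log2 folds of -1.41 (-1.89 to -0.93). The monocultures differed little (LNCaP over PC-3 0.989, 0.799 to 1.22). Of the 15531 genes that reached 1 CPM in any library, 12.5% had coculture log2 folds that differed by 1 or more between the lines, as did these 2 of 9. All 4 libraries enter that difference, so it shares them with the folds above.

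The reads behind CCNE2 were partly divided by estimation. Its exons overlap those of INTS8, a subunit of the Integrator complex on the opposite strand, over 1629 of 3432 bases, and the library kit does not mark strand. The deposited values of CCNE2 were not whole in any library, while those of CCNE2 and INTS8 summed to a whole number within 0.01 in 4 of 4 libraries. INTS8 itself had 67.9 CPM in cocultured LNCaP tissues and 49.3 CPM in monocultured LNCaP tissues, and 141 CPM in cocultured PC-3 tissues and 124 CPM in monocultured PC-3 tissues. The summed counts of both genes were 1.20-fold higher in cocultured than in monocultured LNCaP tissues (1.10 to 1.31). CCNE2 made up 6.66% of that sum in cocultured LNCaP tissues and 18.5% in monocultured LNCaP tissues, so the sum follows INTS8 and says nothing of CCNE2 by itself. How far the CCNE2 values depend on the division of shared reads was not tested. CDK4 and TSPAN31 overlap over 1078 of 2076 bases and likewise summed to whole numbers in 4 of 4 libraries, where CDK4 made up most of the sum and the sum kept every direction of CDK4 (LNCaP over PC-3 monoculture 1.39, 1.31 to 1.47). CCNE1 shares exons with no other gene of GENCODE v29 and its values were whole in every library.

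The pair of E-type cyclins differed more between libraries in makeup than in sum. Their summed counts were 276 in cocultured LNCaP tissues, 327 in monocultured LNCaP tissues, 245 in cocultured PC-3 tissues and 269 in monocultured PC-3 tissues. CCNE1 took 72.8% of them in cocultured LNCaP tissues (67.2 to 78.0) and 45.9% in monocultured LNCaP tissues (40.4 to 51.4), and 15.5% in cocultured PC-3 tissues (11.2 to 20.7) and 32.7% in monocultured PC-3 tissues (27.1 to 38.7). Scaled by exon length its share was 81.6% in cocultured LNCaP tissues, 58.3% in monocultured LNCaP tissues, 23.3% in cocultured PC-3 tissues and 44.5% in monocultured PC-3 tissues. No interval of these shares overlapped another, and CCNE2 enters each of them with the limit just given.

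CDK2 (chromosome 12, 55966830 to 55972789), the kinase of the E-type cyclins, varied less. It had 66.7 CPM in cocultured LNCaP tissues, 67.3 CPM in monocultured LNCaP tissues, 60.0 CPM in cocultured PC-3 tissues and 52.6 CPM in monocultured PC-3 tissues. Its exons overlap those of PMEL over 89 of 2440 bases, on the opposite strand. Coculture over monoculture was 0.991 in LNCaP (0.909 to 1.08; its log2 of -0.013 became 0.025 with median-of-ratios scaling) and 1.14 in PC-3 tissues (1.04 to 1.25), and LNCaP over PC-3 was 1.28 in monoculture (1.17 to 1.40) and 1.11 in coculture (1.02 to 1.22).

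RB1 and CDKN1B, the brakes in this set, were both higher in LNCaP tissues. RB1 (chromosome 13, 48303751 to 48481890; 27 exons) had 77.6 CPM in cocultured LNCaP tissues and 62.8 CPM in monocultured LNCaP tissues, and 46.1 CPM in cocultured PC-3 tissues and 42.3 CPM in monocultured PC-3 tissues. It was 1.48-fold higher in LNCaP between monocultures (1.34 to 1.64) and 1.68-fold between cocultures (1.53 to 1.85). Coculture over monoculture was 1.24 in LNCaP (1.14 to 1.35) and 1.09 in PC-3 tissues (0.980 to 1.21). CDKN1B (chromosome 12, 12717368 to 12722369) had 139 CPM in cocultured LNCaP tissues and 184 CPM in monocultured LNCaP tissues, and 77.3 CPM in cocultured PC-3 tissues and 90.0 CPM in monocultured PC-3 tissues. It was 2.04-fold higher in LNCaP between monocultures (1.92 to 2.18) and 1.80-fold between cocultures (1.68 to 1.93). It was the one member lower in coculture in both lines with an interval clear of 1, at a fold of 0.757 in LNCaP (0.716 to 0.801) and 0.858 in PC-3 tissues (0.795 to 0.927).

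**Figure D3:**
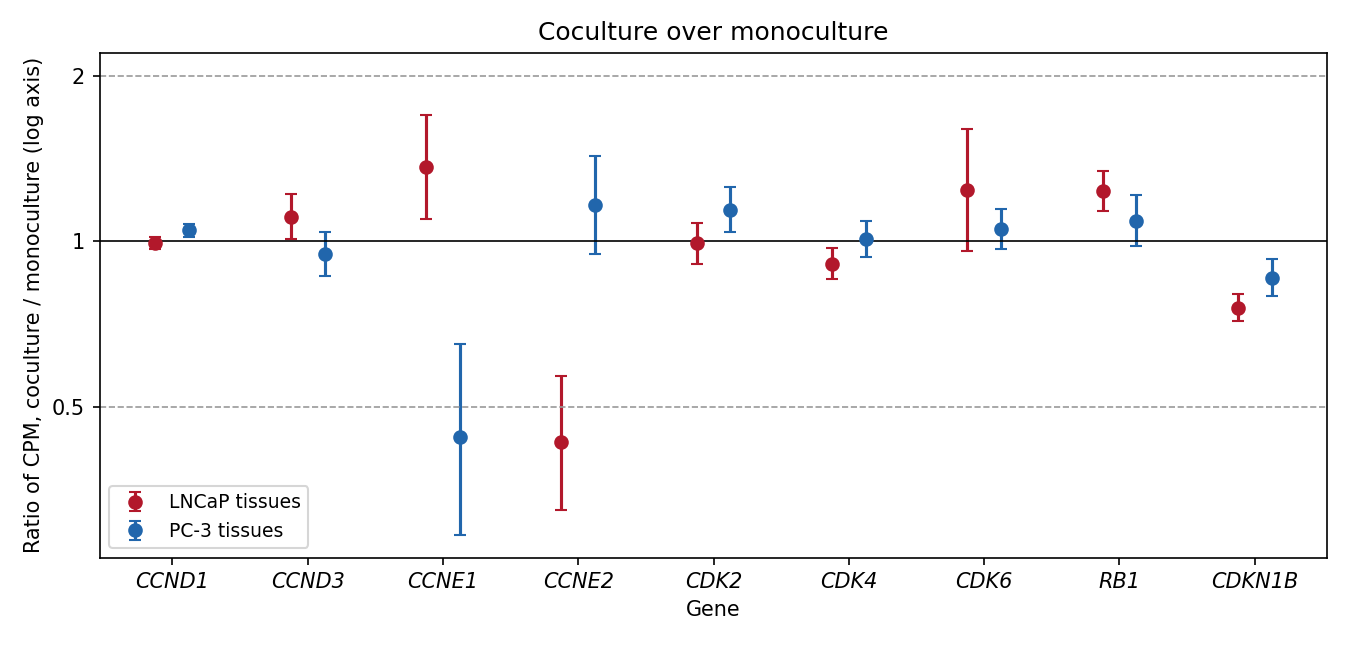
Ratio of CPM, coculture over monoculture, for each gene in LNCaP and PC-3 tissues, on a log axis with exact 95% counting intervals; dashed lines mark 2-fold. CCNE1 in PC-3 (0.440) and CCNE2 in LNCaP tissues (0.431) lie below the lower dashed line, and the other points lie between 0.757 and 1.36.

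Counted over the set, few members passed a fold threshold in coculture. In cocultured PC-3 tissues 1 of 9, CCNE1, was at least 2-fold lower than in monoculture, against 1.01% of the 14417 genes that reached 1 CPM in either library, and 0 were at least 2-fold higher, against 2.22% of all genes. In cocultured LNCaP tissues 1 of 9, CCNE2, was at least 2-fold lower, against 3.03% of 14119 genes, and 0 were higher, against 4.56%. At 1.5-fold the same single genes were lower, against 3.86% of all genes in PC-3 and 8.95% in LNCaP tissues, and 0 were higher, against 4.65% and 7.88%. The median log2 fold of the 9 genes was 0.066 in PC-3 tissues (0.0043 over all genes tested) and -0.012 in LNCaP tissues (0.00033 over all genes tested).

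Between the lines more members differed, as did more of all genes. In monoculture, CDKN1B was at least 2-fold higher in LNCaP than in PC-3 (22.1% of 15160 genes were), a call that ended with median-of-ratios scaling at a log2 fold of 0.96, and CDK6 at least 2-fold lower (23.6%). In coculture, CCNE1 was at least 2-fold higher in LNCaP (20.7% of 15155 genes), and CCNE2 and CDK6 at least 2-fold lower (23.6%). At 1.5-fold, CCNE1 and CDKN1B were higher in monoculture and CCNE1, RB1 and CDKN1B in coculture (32.3% and 31.0% of all genes), while CDK6 in monoculture and CCNE2 and CDK6 in coculture were lower (31.4% and 32.1%). The cocultures and monocultures of a line share that line, so these comparisons are 2 views of 2 lines rather than independent ones. Over all 4 libraries, CDK6, CCNE1, CCNE2 and CDKN1B had a highest level at least 2 times their lowest, and 56.1% of genes had such a range.

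**Figure D4:**
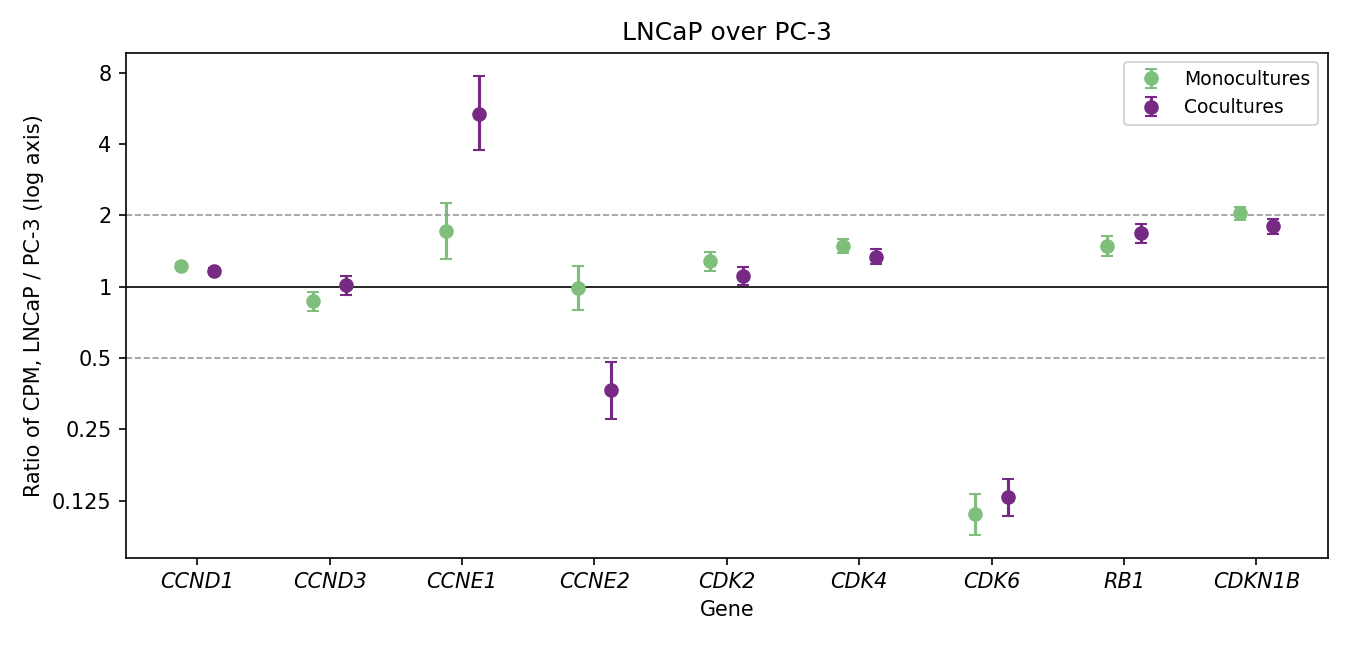
Ratio of CPM, LNCaP over PC-3, for each gene in monocultures and in cocultures, on a log axis with exact 95% counting intervals; dashed lines mark 2-fold. CDK6 lies near 0.110 and 0.129, CDKN1B near 2.04 and 1.80, and CCNE1 and CCNE2 move apart from their monoculture values in coculture.

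The genes around this core were read from lists. Among the other CDK inhibitors, the lines differed in which ones they held. CDKN1A, which encodes p21, had 329 CPM in cocultured LNCaP tissues and 285 CPM in monocultured LNCaP tissues, against 39.6 CPM in cocultured PC-3 tissues and 35.5 CPM in monocultured PC-3 tissues, or 8.01-fold higher in LNCaP between monocultures (7.34 to 8.76). CDKN2B, which encodes p15, an inhibitor of CDK4 and CDK6, had 51 counts in cocultured LNCaP tissues and 27 in monocultured LNCaP tissues, against 2380 in cocultured PC-3 tissues and 2806 in monocultured PC-3 tissues, and was 103-fold lower in LNCaP between monocultures (70.5 to 156). CDKN2A, whose counts cover p16 and ARF transcripts alike, was 4.10-fold lower in LNCaP between monocultures. PC-3 tissues thus held more RNA of CDK6, CDKN2A and CDKN2B, and LNCaP tissues more of CDKN1A and CDKN1B. In coculture over monoculture, 1 of 6 inhibitors passed 1.5-fold in LNCaP tissues, CDKN2B (1.92-fold, 1.18 to 3.19), and 0 of 6 in PC-3 tissues, where CDKN1A was highest (1.12-fold) and CDKN2A lowest (fold 0.753). For scale, 7.88% of all genes passed 1.5-fold upwards in the LNCaP coculture and 4.65% in the PC-3 coculture. Downwards the shares were 8.95% and 3.86%. The list's median log2 fold was -0.21 in LNCaP and -0.20 in PC-3 tissues, beside 0.00033 and 0.0043 over all genes tested.

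RB has a pair of relatives, RBL1 (p107) and RBL2 (p130), and RBL2, like RB1, was higher in LNCaP tissues. RBL2 had 174 CPM in cocultured LNCaP tissues and 150 CPM in monocultured LNCaP tissues, against 55.7 CPM in cocultured PC-3 tissues and 51.4 CPM in monocultured PC-3 tissues (2.92-fold between monocultures, 2.69 to 3.16). RBL1 was 1.64-fold higher in LNCaP between monocultures (1.41 to 1.91). Its coculture fold was 1.34 in PC-3 (1.14 to 1.56) and 0.958 in LNCaP tissues (0.838 to 1.10). Of the 10 E2F and DP factors, 0 passed 1.5-fold in either coculture, with folds from 0.803 (E2F2) to 1.10 (TFDP1) in LNCaP and from 0.834 (TFDP2) to 1.13 (E2F8) in PC-3 tissues. Their median log2 fold was -0.027 in LNCaP and -0.039 in PC-3 tissues. Past 1.5-fold in coculture were 7.88% of all genes upwards and 8.95% downwards in LNCaP, and 4.65% and 3.86% in PC-3 tissues. Between monocultures TFDP2 was 1.70-fold higher in LNCaP and E2F6, E2F7 and TFDP1 had folds of 0.555, 0.506 and 0.641.

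Among the other cyclins, kinases and activators, CDK3 alone passed 1.5-fold in coculture, with 141 counts in cocultured LNCaP tissues and 94 in monocultured LNCaP tissues, and 47 in cocultured PC-3 tissues and 26 in monocultured PC-3 tissues; a read-through gene, TEN1-CDK3, includes it, so the source of its reads is uncertain. The median log2 fold of this list was -0.14 over the 8 genes measured in LNCaP and 0.018 over 9 in PC-3 tissues, which became -0.13 with genes kept at 5 CPM. CCNA1, a cyclin A known from the germ line, had 0 counts in both LNCaP libraries against 70 in cocultured PC-3 tissues and 51 in monocultured PC-3 tissues, and was at least 16.8-fold lower in monocultured LNCaP tissues. CCNA2, the cyclin A of S phase, was 2.55-fold higher in LNCaP between monocultures (2.23 to 2.92), and MNAT1, of the CDK-activating kinase, 2.97-fold lower (2.61 to 3.38). Of the 8 genes that govern turnover of cyclins and p27, CKS1B, the cofactor of SKP2 in marking p27 for breakdown, was 2.27-fold lower in cocultured LNCaP tissues (427 against 985 counts, 2.02 to 2.54), and 0 others passed 1.5-fold there. Its log2 fold was -1.18, and -1.01 after the median of genes of like exon length was taken off. CKS1B had a fold of 0.852 in PC-3 tissues (0.765 to 0.947), where 0 of the 8 passed 1.5-fold. The median log2 fold of these 8 was -0.12 in LNCaP and 0.14 in PC-3 tissues. Beside CDK3 and CKS1B, the all-gene shares past 1.5-fold in the LNCaP coculture were 7.88% upwards and 8.95% downwards. In the PC-3 coculture they were 4.65% and 3.86%. The all-gene medians were 0.00033 in LNCaP and 0.0043 in PC-3 tissues. SKP2 itself was 1.86-fold higher in LNCaP between monocultures (1.64 to 2.12), and FBXO4, an F-box protein linked to cyclin D1 turnover, 2.22-fold higher (1.67 to 2.99).

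The RNA of E2F targets and mitotic genes was read beside that of the switch, whose activity was not measured. Of 20 E2F targets of S phase entry, 17 had a log2 fold above 0 in cocultured PC-3 tissues (median 0.16) and 7 in cocultured LNCaP tissues (median -0.10), where 50.8% and 50.1% of all genes tested were above 0 in PC-3 and LNCaP tissues. The targets past 1.5-fold were all lower: GINS2, of the replicative helicase, in PC-3 (fold 0.657, 0.552 to 0.781) and LNCaP tissues (0.599, 0.510 to 0.703), and GINS1 in LNCaP tissues (0.607, 0.548 to 0.671). Of all genes, 3.86% were at least 1.5-fold lower in PC-3 and 8.95% in LNCaP tissues. Of 10 mitotic genes, 8 had a log2 fold above 0 in cocultured PC-3 tissues (median 0.36) and 0 in cocultured LNCaP tissues (median -0.43), beside the same 50.8% and 50.1% of all genes. MKI67 and CENPF were at least 1.5-fold higher in PC-3 tissues, as were 4.65% of all genes. CDC20 (0.602), PLK1 (0.650) and CCNB2 (0.665) were at least 1.5-fold lower in LNCaP tissues, as were 8.95% of all genes. Beside the medians of both lists, CCNE1 had a log2 fold of -1.14 in PC-3 and 0.44 in LNCaP tissues, the opposite sign in either line. CCNE2 had 0.22 in PC-3 and -1.19 in LNCaP tissues, the same sign as the medians. Between monocultures, 8 of 20 E2F targets and 7 of 10 mitotic genes were at least 1.5-fold higher in LNCaP and 0 lower, where 32.3% and 31.4% of all genes were higher and lower. Among them were RRM1, a subunit of ribonucleotide reductase (3.19-fold), and CCNB2, a mitotic cyclin (3.39-fold). Between cocultures, 5 of 20 and 2 of 10 were higher and 2 of 20 and 1 of 10 lower, against 31.0% of all genes higher and 32.1% lower.

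**Figure D5:**
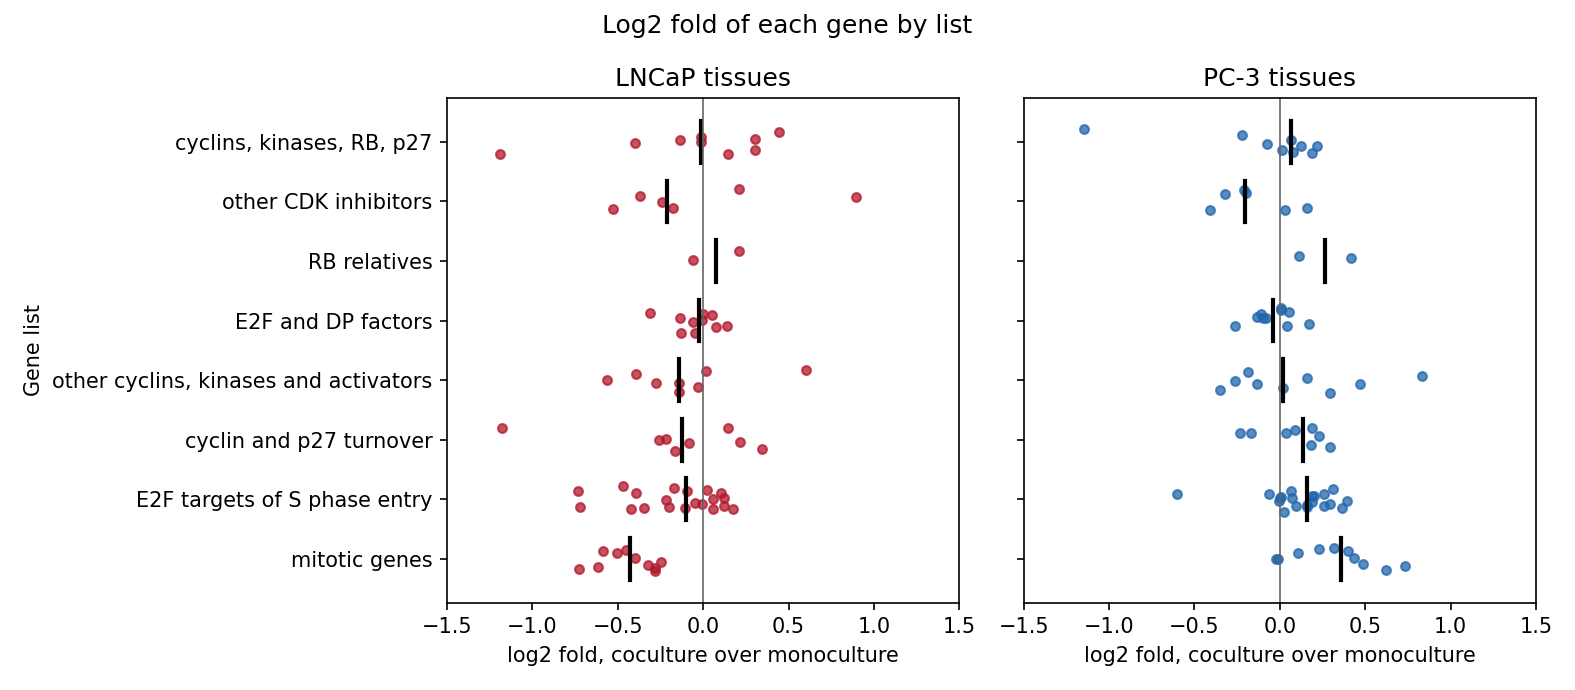
Log2 fold, coculture over monoculture, of each gene that reached 1 CPM in either library, by list, for LNCaP tissues (left) and PC-3 tissues (right); points are genes and black bars medians. Mitotic genes lie left of 0 in LNCaP (median -0.43) and mostly right of 0 in PC-3 tissues (median 0.36).

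For each member with at least a 2-fold range, the genes nearest in profile were sought among 8905 genes with a mean of at least 20 CPM, by Euclidean distance of centred log2 CPM over the 4 libraries. Nearest to CCNE1 were FAM172A (distance 0.42) and RHOU (0.48), with 2 genes within 0.5. CCNE2 was nearest to FKBP2 (0.31) and SOX4 (0.37), with 31 genes within 0.5. CDK6 was nearest to SLC6A6 (0.082), with 84 genes within 0.5, and CDKN1B to LIN7C (0.033) and ZC3H6 (0.042), with 1263. CCNE1 and CCNE2 themselves reached at most 13.0 and 13.2 CPM, below the 20 CPM asked of candidates. The numbers within 0.5 were not compared between members. With 4 libraries such likeness is a description of profile only.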

How the data were processed

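RNA of 4 libraries, 1 per group, was measured; TruSeq RNA v2 was the kit, per the labels, and it marks no strand. The deposited table holds estimated counts, unscaled, by gene symbol. The submitters' processing notes name FastQC, STAR, Partek and hg38; roles, annotation and filters are not given in the sources used here. In each library 33.7% to 34.1% of values were not whole, and all were rounded. All sample columns were used. Counts were scaled by TMM (factors 0.996 to 1.006; edgeR 4.0.16, R 4.3.3; DESeq2 1.42.0 for size factors) to CPM, counts per 1000000. A prior count of 2 entered log2 folds; other folds are ratios with exact conditional binomial intervals, differences of log2 folds had delta-method intervals, and levels had exact Poisson intervals, tested on simulated data. Genes needed 1 CPM in 1 of the 2 libraries. A count of 0 allows 3 counts. Totals were 15520243 to 15865690. Exon lengths came from GENCODE v29 for 16628 genes, positions from RefSeq, GRCh38.p14. Alternatives were other scalings, filters, the prior, unrounded values and a length correction in 20 bins. Python 3.11.15, numpy 2.4.6, pandas 2.3.3, scipy 1.17.1 and matplotlib 3.10.9 did the rest. Members and lists were chosen with earlier results of these data known. Named were all members; in each list and comparison, genes past 1.5-fold or, with none, the highest and lowest, of which those between lines are given in part; and the 2 nearest profiles of members with a 2-fold range. Some genes that this rule names are not reported here.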

Additional observations from a re-analysis of the deposited data

Results flagged for a closer look

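For 6 of the 9 genes the coculture lay above the monoculture in 1 line and below it in the other, which marked them for a closer look; with 1 library per group the difference between the lines was not tested. Over 15531 genes, 42.3% had opposite signs in this way. With median-of-ratios scaling CCND1 and CDK2 no longer did, which left 4 of the 9 genes, against 42.5% of all. Of the 6 genes, CCNE1 alone had coculture folds with intervals clear of 1 in both lines. The interval held 1 in LNCaP tissues for CCND1 and CDK2, and in PC-3 tissues for CCND3, CCNE2 and CDK4. As LNCaP minus PC-3 log2 folds, CCNE1 differed by 1.59 and CCNE2 by -1.41. The other 4 were small: CCND3 differed by 0.22, CDK2 by -0.20, CDK4 by -0.15 and CCND1 by -0.077. The median absolute difference over 15531 genes was 0.277.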

How the results depend on the processing

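No paired analysis was possible because each group had 1 library. The 9 levels in 4 libraries and the 9 differences of log2 folds stayed inside their counting intervals under every alternative run on them. Of the folds of single genes, 216 did so and 8 did not, 5 of them for CCND1. CCND1 and CDK2 in the LNCaP coculture, whose intervals hold no change, took the opposite sign (log2 0.027 and 0.025) with median-of-ratios factors. CCNE2 and INTS8 summed, an alternative chosen after seeing the data, as was adding TSPAN31 to CDK4, had a log2 fold of 0.26 in the LNCaP coculture, against -1.19 for CCNE2 and 0.46 for INTS8 alone; INTS8 holds most of that sum, so it does not test the CCNE2 fold. Of the list medians, 5 moved by over 0.1, 4 of them for fibroblast markers. Of the counts past a fold, 238 stayed within 1.5 times and 18 did not. CDKN1B fell under 2-fold between monocultures with median-of-ratios factors, leaving 0 members at least 2-fold higher in LNCaP, and with upper-quartile factors 4 members were at least 1.5-fold higher there. Such factors shift every gene of a library alike. Between monocultures, the median log2 fold of all genes was 0.039 with TMM, -0.033 with median-of-ratios and 0.083 with upper-quartile factors. The cause of the other changes was not tested. With no filter on low counts, the counts over all genes past 2-fold were 906 upwards and 440 downwards in the PC-3 coculture (1632 and 1175 at 1.5-fold), and 1286 and 753 in the LNCaP coculture (2118 and 1945 at 1.5-fold). At 5 CPM these were 87 and 21 (218 and 174), and 240 and 154 (531 and 687). Depth limits CCNE1, CCNE2 and CDK6 most, with counts of 38 to 207 outside the PC-3 libraries of CDK6.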
